A study of Mus musculus with 6 samples.

Results

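p53, encoded by Trp53 in the mouse, and 9 genes that it controls or that control it were followed in RNA pulled down from quiescent mouse neural progenitor cells. The 10 genes were chosen by name for their part in stress from a nucleoside analogue and in quiescence, and all 10 were found among the 55416 gene IDs of the count table. The cells, of embryonic brain origin, were kept quiescent in all 6 samples in medium with BMP4 (20 ng/ml) and FGF2 (10 ng/ml). On day 1 after quiescence was induced, 3 samples received 250 µM EU, short for 5-ethynyluridine, which cells use in place of uridine when they make RNA. RNA was collected on day 8, 7 days after EU was given. The 3 PBS samples received PBS in place of EU and went through the same biotin coupling and streptavidin pulldown, which measures what the beads hold without label. The comparison asks which RNAs made early in quiescence held a larger share of the EU pulldown than of that background. The total amount of captured RNA is not compared. Strain, age of the embryos and whether replicates were separate cultures are not given in the labels.

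p53 is a transcription factor that is held at a low level by Mdm2, a ubiquitin ligase, and by Mdm4, a related protein that covers its activation domain. DNA damage and other stress release it, and it then raises genes that stop the cell cycle, repair DNA or start cell death, Mdm2 among them, which closes a feedback loop. In neural progenitors the pathway is known for limiting self-renewal, and its target Cdkn1a for keeping adult neural stem cells in quiescence. Because the libraries hold pulled-down RNA, a value below is a share of what bound to the beads and not the activity of p53 or the abundance of a transcript in the cell.

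p53 binds DNA through pairs of a 10-base half-site. The promoter windows that RefSeq gives for the genes on build GRCm38.p6, from 250 bases before to 50 bases after each annotated start, were searched for this p53 half-site, a pattern that reads the same on both strands. A window was found for 9 of the 10 genes, 12 windows in all, since some genes have more than 1 start. Of these, 7 windows, of 7 genes, held at least 1 half-site (58.3%), against 2745 of all 32851 windows (8.36%). The windows of Mdm4 and Btg2 held none, as did 1 of the windows each of Cdkn1a and Sesn1. The genes were chosen by name for their link to p53, so a higher share than over all windows is built into the choice. A match is a description of the letters, not evidence that p53 binds there. The upstream window of Cdkn1a, with 2 matches, is shown first. Next come those of Ccng1, the only gene of the 10 whose groups were separated, and of Mdm2, the feedback inhibitor. Half-sites are in capitals.
Cdkn1a (chr17:29090729-29091028, plus strand): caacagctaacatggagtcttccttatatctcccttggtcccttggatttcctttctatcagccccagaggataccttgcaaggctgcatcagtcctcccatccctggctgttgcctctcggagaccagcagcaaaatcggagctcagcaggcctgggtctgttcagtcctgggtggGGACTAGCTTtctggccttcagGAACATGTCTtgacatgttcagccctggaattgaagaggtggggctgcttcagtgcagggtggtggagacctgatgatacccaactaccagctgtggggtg
Ccng1 (chr11:40755237-40755536, minus strand): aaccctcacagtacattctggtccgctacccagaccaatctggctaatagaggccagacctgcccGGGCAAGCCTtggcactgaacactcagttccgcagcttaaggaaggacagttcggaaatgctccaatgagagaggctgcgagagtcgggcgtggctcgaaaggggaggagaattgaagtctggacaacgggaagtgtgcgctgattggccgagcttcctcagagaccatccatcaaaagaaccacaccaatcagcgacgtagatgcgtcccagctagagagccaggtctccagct
Mdm2 (chr10:117710709-117711008, minus strand): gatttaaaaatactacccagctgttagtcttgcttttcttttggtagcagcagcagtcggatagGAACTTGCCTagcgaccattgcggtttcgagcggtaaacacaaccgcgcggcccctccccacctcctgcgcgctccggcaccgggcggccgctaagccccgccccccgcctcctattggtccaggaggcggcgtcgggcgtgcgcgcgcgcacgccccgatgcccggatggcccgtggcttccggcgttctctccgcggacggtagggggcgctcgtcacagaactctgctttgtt
In the Cdkn1a window shown, the matches begin at -73 and -51 relative to its own, upstream start and do not overlap or adjoin. The 10 bases directly after the second match, tgacatgttc, miss the pattern at their first base only. In Ccng1 the match begins at -185 and in Mdm2 at -186. Single matches lay at -75 in Trp53, -40 in Gadd45a, -201 in Bax and -173 in the second window of Sesn1.

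Libraries from EU pulldowns held 9564856 to 26479031 counts and those from PBS pulldowns 413181 to 729649. The mean EU total was 33.3 times the mean PBS total, a difference that scaling by library size removes. A log2 fold near 0 below thus means equal shares. It does not show whether EU captured more of an RNA. A single count was worth 0.0353 to 0.127 CPM (counts per 1000000 counts of the library, whose size was corrected by TMM factors for composition) in EU and 1.29 to 2.13 CPM in PBS, so the 10 genes rested on 37 to 6995 counts per library in EU and on 0 to 232 in PBS. All 12 neural progenitor markers had counts, with a summed level of 2996 to 3998 CPM in EU and 3211 to 3928 CPM in PBS. Detection was uneven, and Prom1 and Hes1 held only 3 counts each over the PBS libraries. The 8 astrocyte markers summed to 6257 to 11495 CPM in EU and 9357 to 16735 CPM in PBS. Of these, Gfap measured 685, 79.1 and 274 CPM in EU and 7440, 1848 and 1589 CPM in PBS, and Aqp4 667 ± 179 and 1397 ± 458 CPM (SD, n = 3 each). Every EU library was below every PBS library for both, and neither passed the test (edgeR adjusted p = 0.0799 and 0.101). Over all 8 astrocyte markers, 5 folds of EU over PBS were positive (56.5% of all tested genes) and 3 negative. Their median log2 fold was 0.20, so Gfap and Aqp4 do not stand for the list. The 8 oligodendrocyte lineage markers summed to 1100.5 to 1678 CPM in EU and 682 to 893 CPM in PBS, most of it Olig1 and Olig2, and the 9 neuron markers to 541 to 679 and 576 to 870 CPM, most of it Map2. The microglia markers Aif1, Cx3cr1, Csf1r and Itgam were at 0 in every library, and the 7 on that list summed to at most 0.506 CPM in EU and 3.18 CPM, from 2 counts, in PBS. The 8 vascular and fibroblast markers summed to 1.77 to 5.19 CPM in EU and 0 to 9.54 CPM in PBS, with Cldn5, Cdh5 and Lum at 0 in every library and Kdr, Col1a1 and Pecam1 at 88, 114 and 23 counts over the EU libraries. Cell cycle genes set EU replicate 2 apart, with 2183 CPM summed over 28 genes against 571 and 578.5 CPM in EU replicates 1 and 3 and 353 to 410 CPM in PBS. The part of these differences between groups and libraries in the values below was not tested. In such bulk libraries of pulled-down RNA, fewer cells of a kind, less RNA per cell and a smaller share bound to the beads cannot be told apart.

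None of the 10 genes passed the test between EU and PBS. The quasi-likelihood test of edgeR, adjusted by Benjamini-Hochberg over all 12477 tested genes with a threshold of 0.05, called 0 of the 10, where it called 0.0240% of all tested genes. At an unadjusted p below 0.05 there was 1 gene higher in EU, Ccng1, against 13.0% of all tested genes, and 0 lower, against 4.26%. DESeq2, limma-voom and edgeR with the replicate number as a block also called 0 of the 10, against 7.57%, 1.98% and 1.58% of all tested genes. The groups were separated, with every EU library above every PBS library in CPM, for 1 of the 10 genes (21.8% of all tested genes) and separated the other way for 0 (6.40%). Folds were positive for 6 of 10 (56.5% of all tested genes), and their median log2 fold of 0.16 lay beside a median of 0.15 for all tested genes. Summed over the 10 genes, EU libraries held 804, 896 and 889 CPM and PBS libraries 911, 808 and 679 CPM, which overlap. All 10 passed the low-count filter. Gadd45a alone reached its floor of 1.94 CPM in fewer than 3 PBS libraries and was tested because of its EU counts.

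**Figure D1:**
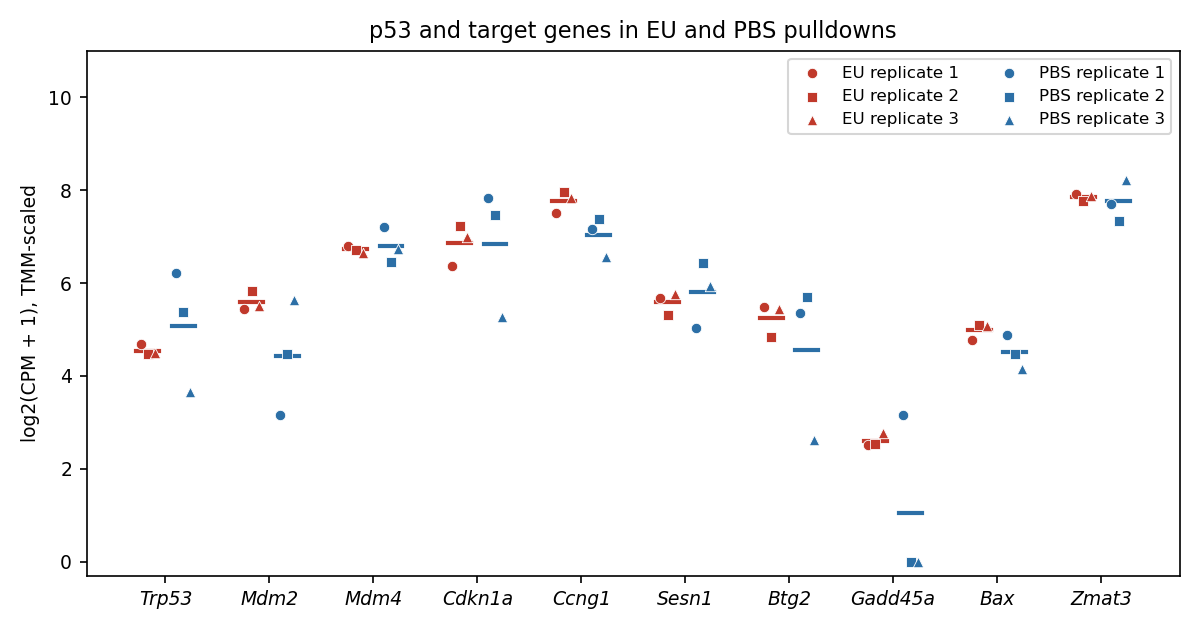
Level of the 10 genes in each library, as log2(CPM + 1), with EU in red and PBS in blue, a symbol for each replicate and a bar at the mean of the 3 values. EU libraries lie close together for most genes and within the span of the PBS libraries for many, and Ccng1 is the gene whose groups do not overlap.

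Trp53 was the gene with the lowest fold of the 10. It measured 24.7, 21.1 and 21.5 CPM in EU replicates 1 to 3 and 73.1, 40.4 and 11.6 CPM in PBS replicates 1 to 3. The EU libraries were near one another, whereas PBS replicates 1 and 2 lay above all of them and PBS replicate 3 below, so the groups overlap. The log2 fold was -0.89 ± 0.67 (SE, from the size of the fold and its F statistic; n = 3 each), which did not pass the test (edgeR adjusted p = 0.589). Counting error alone gave PBS replicate 1 an exact 95% Poisson interval of 53.5 to 97.5 CPM and PBS replicate 3 one of 5.30 to 22.0 CPM. These intervals lie apart, so the PBS libraries differed by more than counting error. Without PBS replicate 1 the log2 fold was -0.15 and without PBS replicate 3 it was -1.35, neither called (edgeR adjusted p = 0.901 and 0.111). The pseudogene Trp53-ps held 5 counts over all libraries.

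Mdm2, the ubiquitin ligase that marks p53 for degradation, measured 42.1, 55.5 and 44.3 CPM in EU and 7.95, 21.3 and 48.9 CPM in PBS. PBS replicate 3 lay among the EU libraries and the other PBS libraries below them. The means were 47.3 ± 7.13 and 26.0 ± 20.9 CPM (SD, n = 3 each), and the fold was 0.84 ± 0.63 in log2 units (SE; adjusted p = 0.589 by edgeR). The order of the PBS libraries was the reverse of that of Trp53: replicate 3 was the highest for Mdm2 and the lowest for Trp53. Leaving out PBS replicate 3 moved the log2 fold to 1.74 and leaving out PBS replicate 1 to 0.42, again without a call (edgeR adjusted p = 0.113 and 0.596).

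Mdm4, which blocks the activation domain of p53, measured 110, 104.5 and 99.8 CPM in EU and 146, 87.2 and 106 CPM in PBS, with the EU values inside the PBS range. Its coefficient of variation was 5.11% in EU, the smallest of the 10, and 26.8% in PBS. The log2 fold was -0.11 ± 0.28 (SE; edgeR adjusted p = 0.906). The pseudogene Mdm4-ps held 5 counts over all libraries.

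Cdkn1a, the cyclin-dependent kinase inhibitor p21 and the best known p53 target in cell cycle arrest, measured 81.6, 148 and 126 CPM in EU and 227, 174 and 37.3 CPM in PBS. EU replicate 1 was the lowest of its group, and all 3 EU values lay between PBS replicate 3 and PBS replicate 2. The means were 119 ± 34.0 and 146 ± 98.0 CPM (SD, n = 3 each) and the log2 fold was -0.29 ± 0.57 (SE; edgeR adjusted p = 0.874). The sign turned without PBS replicate 1, at 0.22, and with limma-voom, at 0.30, so no direction can be given. Its coefficient of variation of 28.6% was the largest of the 10 in EU, and EU replicate 2, the library with the most cell cycle RNA, held the highest value. What the cell cycle RNA of that library has to do with the Cdkn1a value was not tested.

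Ccng1 encodes cyclin G1, a p53 target that acts with the phosphatase PP2A on Mdm2. It measured 180, 247 and 228 CPM in EU and 141, 166 and 94.0 CPM in PBS, so that the lowest EU library lay above the highest PBS library. The means were 218 ± 34.6 and 134 ± 36.5 CPM (SD, n = 3 each), 1.63 times higher in EU, with a log2 fold of 0.71 ± 0.28 (SE). That was the smallest p of the 10 genes at 0.0344, and it did not pass over all genes (edgeR adjusted p = 0.234). The separation depended on the scaling: with library size alone EU replicate 1 measured 148 CPM and PBS replicate 2 measured 189 CPM, and the groups overlapped. Without EU replicate 2, which held the highest value, the log2 fold was 0.61 (edgeR adjusted p = 0.620).

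Btg2, an antiproliferative factor that joins the deadenylase complex and is known in mouse brain for marking progenitors about to make neurons, measured 43.5, 27.5 and 42.5 CPM in EU. In PBS it measured 39.7, 51.0 and 5.15 CPM, the last from 4 counts. The groups overlap, and the log2 fold of 0.27 ± 0.73 (SE; edgeR adjusted p = 0.914) became -0.26 without PBS replicate 3. Gadd45a, a small stress protein of growth arrest and DNA repair, measured 4.68, 4.80 and 5.87 CPM in EU and 7.95, 0 and 0 CPM in PBS, where 5 counts of replicate 1 were all there was. A count of 0 allowed up to 6.38 CPM in PBS replicate 2 and 3.86 CPM in PBS replicate 3, taking 3 counts as the limit, which covers counting error only. The share in EU was thus not distinguishable from that in the background at the depth of PBS replicate 2. The log2 fold was 0.93 ± 1.11 (SE; edgeR adjusted p = 0.769) and 2.23 with the replicate number as a block. Without PBS replicate 1 no PBS count was left, and the fitted log2 fold of 8.93, which then depends on the prior count, did not pass either (edgeR adjusted p = 0.0861). Gadd45a shares 19.1% of its exonic bases with E230016M11Rik on the other strand, and reads of the 2 genes cannot be told apart where counting ignores strand.

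Sesn1, a sestrin that restrains the growth kinase complex mTORC1, measured 50.1, 38.7 and 53.3 CPM in EU and 31.8, 85.0 and 60.5 CPM in PBS, with EU inside the PBS range (log2 fold -0.31 ± 0.43 SE; edgeR adjusted p = 0.808). Bax, which forms pores in the outer mitochondrial membrane during cell death, measured 26.3, 33.4 and 32.7 CPM in EU and 28.6, 21.3 and 16.7 CPM in PBS. EU replicate 1 lay below PBS replicate 1, and the log2 fold was 0.48 ± 0.52 (SE; edgeR adjusted p = 0.747). Zmat3, a zinc finger protein that binds RNA and is a p53 target in tumour suppression, measured 241, 215 and 234 CPM in EU and 207, 162 and 299 CPM in PBS. Its means of 230.1 ± 13.2 and 222 ± 69.9 CPM (SD, n = 3 each) differed by far less than the spread in PBS (log2 fold 0.04 ± 0.27 SE; edgeR adjusted p = 0.965).

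**Figure D2:**
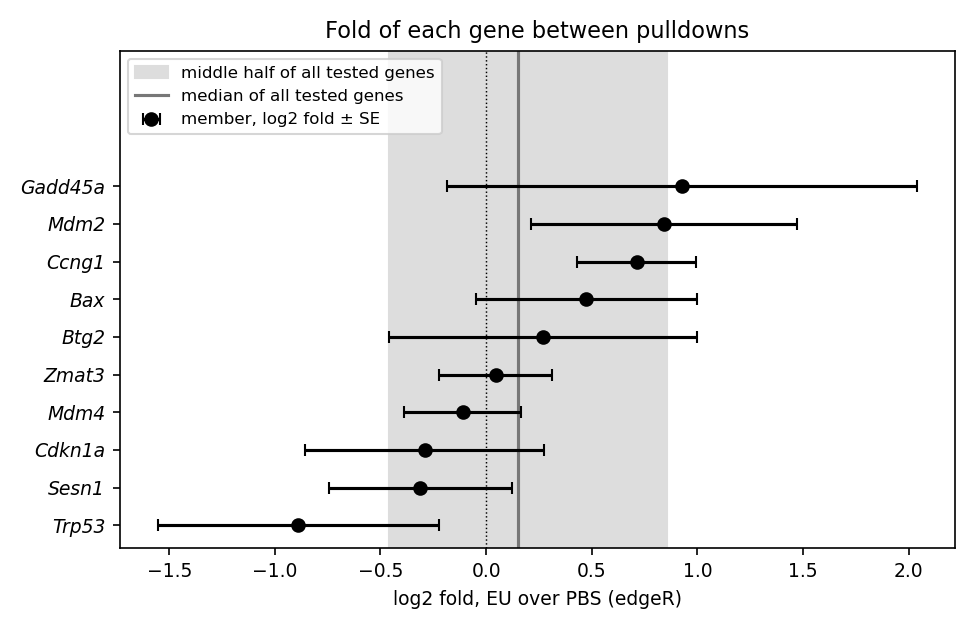
Log2 fold between EU and PBS for each gene from the edgeR fit, with its standard error as a bar, over a grey band from the lower to the upper quartile of all 12477 tested genes (-0.46 to 0.86) and a line at their median of 0.15. From Trp53 at -0.89 to Gadd45a at 0.93 the genes spread about that line, and 8 of the 10 lie inside the band.

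Levels of different genes were set side by side only per length, as CPM per kb of the union of a gene's exons in GENCODE M21. In EU the order ran from Ccng1 at 62.1 ± 9.86 CPM per kb, through Cdkn1a at 33.4 ± 9.57, Zmat3 at 20.1 ± 1.16 and Bax at 19.5 ± 2.47 (SD, n = 3). Btg2 followed at 13.8 ± 3.26, Sesn1 at 11.9 ± 1.92, Mdm2 at 9.31 ± 1.40, Mdm4 at 7.09 ± 0.362, Trp53 at 5.54 ± 0.486 and Gadd45a at 2.90 ± 0.370 CPM per kb. Neighbours in this order overlapped in 3 of 9 places in EU, namely Zmat3 with Bax, Btg2 with Sesn1 and Sesn1 with Mdm2. In PBS they overlapped in 8 of 9 places, and Cdkn1a at 41.2 ± 27.6 CPM per kb stood before Ccng1 at 38.1 ± 10.4. Trp53 itself had rank 9 of 10 in EU and rank 7 in PBS. With the longest coding transcript as the length, Ccng1, Cdkn1a, Zmat3 and Bax kept ranks 1 to 4 and Trp53 and Gadd45a ranks 9 and 10, and the 4 genes between them changed places.

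**Figure D3:**
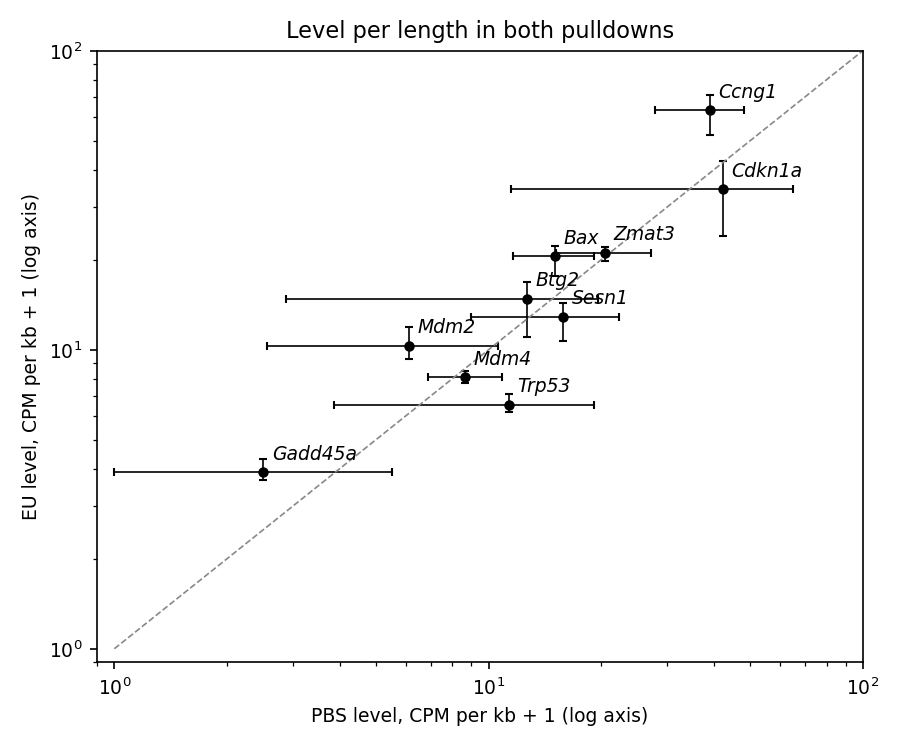
Level per length of each gene in PBS (horizontal) and EU (vertical), as CPM per kb plus 1 on log axes, with points at the means, bars from the lowest to the highest of 3 libraries and a dashed line of equal level. The horizontal bars are longer than the vertical ones for all 10 genes, and only the bars of Ccng1 and Bax stay clear of the line. For Bax the lowest EU library, at 16.7 CPM per kb, still lay below the highest PBS library, at 18.2.

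The EU libraries resembled one another far more than the PBS libraries did. Over the 10 genes the coefficient of variation ran from 5.11% to 28.6% in EU and from 26.8% to 173% in PBS. The highest PBS library exceeded the lowest by 9.91 times for Btg2, 6.31 times for Trp53, 6.16 times for Mdm2 and 6.09 times for Cdkn1a, while in EU the widest ratio was 1.82, for Cdkn1a. In each group the exact 95% Poisson intervals of the highest and lowest library lay apart for 7 of the 10 genes, so neither spread was counting error alone. No library was high or low for all genes. PBS replicate 3 was the lowest of its group for 5 of 10, among them Trp53, Cdkn1a and Btg2, and the highest for Mdm2 and Zmat3. EU replicate 2 was the highest of its group for Mdm2, Cdkn1a, Ccng1 and Bax and the lowest for Trp53, Sesn1, Btg2 and Zmat3.

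**Figure D4:**
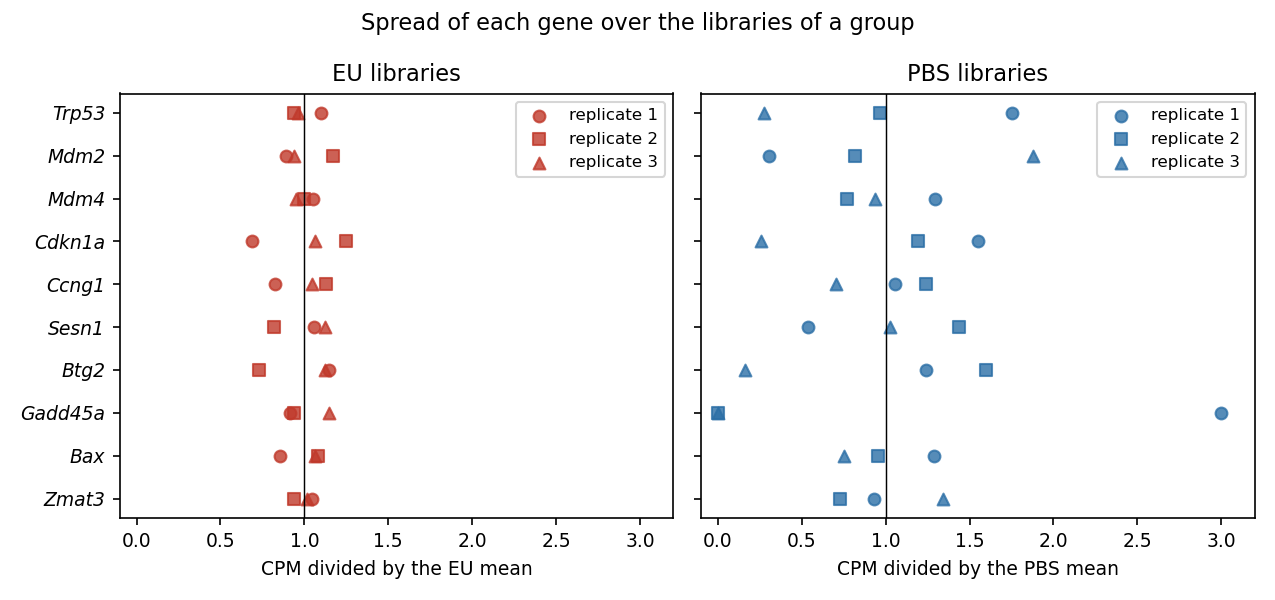
CPM of each gene in each library divided by the mean of its group, for EU on the left and PBS on the right, with a line at 1 and a symbol for each replicate. EU values lie between 0.687 and 1.25 of their mean, and PBS values between 0 and 3, with Gadd45a at 0 in 2 libraries.

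EU enters RNA in place of uridine, so a transcript with more uridines offers more places for label. The longest coding transcript in GENCODE M21 held 213 uridines in Bax, 279 in Gadd45a, 453 in Trp53 and 514 in Cdkn1a, and these 4 fell in the lowest of 3 equal classes of the 11097 tested genes with a coding transcript. It held 755 in Btg2, 814 in Mdm2, 956 in Sesn1 and 987 in Ccng1, in the middle class, and 2164 in Mdm4 and 2368 in Zmat3, in the highest. Across all tested genes the median log2 fold was 0.02 in the lowest, 0.14 in the middle and 0.27 in the highest class. What uridine number has to do with these medians was not tested. It goes with transcript length, which was 1100 bases in Bax, 7105 in Mdm4 and 7797 in Zmat3. Of the 10 genes, Mdm4 and Zmat3 in the highest class had log2 folds of -0.11 and 0.04. The 4 in the lowest class fell on both sides of these, with Trp53 at -0.89, Cdkn1a at -0.29, Bax at 0.48 and Gadd45a at 0.93.

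Trp53 was also compared with all other genes by the course of its level over the 6 libraries. Among 6556 tested genes with a symbol and a mean of at least 20 CPM, the 5 whose log2 CPM followed it most closely were Atg12, Kif1bp, Ptgr2, E130114P18Rik and Mau2, with Pearson correlations of 0.988 to 0.993. All 5 were at their highest in PBS replicate 1 and their lowest in PBS replicate 3, as Trp53 was, so the likeness rests mostly on the PBS libraries. Atg12 measured 41.8, 39.6 and 44.6 CPM in EU and 122, 76.5 and 21.9 CPM in PBS. With so many candidates over 6 libraries, close likeness of some gene is a description only.

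No gene of the pathway lists below was called by edgeR. Of 33 other p53 target genes 30 were tested, 20 with a positive fold (56.5% of all tested genes) and 10 with a negative one. Their median log2 fold was 0.43, and 0.25 with the 3 genes that had no PBS count set at their EU mean over the limit for a count of 0 given for PBS replicate 2. An unadjusted p below 0.05 was reached by 7, all higher in EU (13.0% of all tested genes). Groups were separated for 10 higher (21.8%) and 1 lower (6.40%). Of the 30, 19 did not reach the filter's floor in all 3 PBS libraries and were kept through their EU counts, so these counts are no support for a difference. Plk2, a kinase that p53 induces, measured 27.0, 41.3 and 36.5 CPM in EU and 3.18, 0 and 5.15 CPM in PBS (log2 fold 3.53 ± 0.90 SE; edgeR adjusted p = 0.0799). Fas, a death receptor, Siva1, a proapoptotic protein, and Pmaip1, the BH3-only protein Noxa, had no count in PBS. The limit of 3 counts in the shallowest PBS library was 6.38 CPM, as for Gadd45a. Fas at 2.94 ± 0.630 and Siva1 at 4.67 ± 1.94 CPM in EU (SD, n = 3 each) had means under it. At the depth of that library their mean shares were not distinguishable from those in the background, although Siva1 measured 6.91 CPM in EU replicate 2. Neither gene passed the test (edgeR adjusted p = 0.0799 for Fas and 0.0843 for Siva1), and no fold is given. Pmaip1 was high in EU replicate 2, at 12.7 CPM against 2.53 and 5.77 CPM in EU replicates 1 and 3, which lay under that limit. EU replicate 2 also held the most cell cycle RNA, whose part in the value was not tested.

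Among 23 regulators and cofactors of p53, all tested, 13 folds were positive (56.5% of all tested genes) and 10 negative, with a median log2 fold of 0.24. An unadjusted p below 0.05 was reached by 1 higher (13.0%) and 1 lower (4.26%), and groups were separated for 6 higher (21.8%) and 2 lower (6.40%). Of the 23, 8 did not reach the filter's floor in all 3 PBS libraries, among them Ppp1r13l and Mapk14. The counts of genes in each direction are thus no support for a difference. Ppp1r13l, an inhibitor of p53 also named iASPP, measured 13.2, 11.6 and 11.1 CPM in EU and had no reads counted in PBS. The EU mean was 1.87 times the limit of 6.38 CPM per library, and the gene did not pass the test (edgeR adjusted p = 0.0799). That limit covers counting error only and not the wider spread among PBS libraries, so a difference is not shown. Ncl, the nucleolar protein nucleolin, measured 212, 348 and 258 CPM in EU and 402, 466 and 363 CPM in PBS, with every EU library below every PBS library (log2 fold -0.59 ± 0.25 SE; edgeR adjusted p = 0.271). Mapk14, the stress kinase p38, measured 27.7 ± 2.72 and 5.49 ± 8.17 CPM, and Ep300, an acetyltransferase and p53 coactivator, 192 ± 17.3 and 102 ± 71.1 CPM (SD, n = 3 each; edgeR adjusted p = 0.336 and 0.380).

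Among relatives of the 10 genes, Sesn2, a sestrin like Sesn1, measured 138, 133 and 159 CPM in EU and 33.4, 53.2 and 78.5 CPM in PBS, with separated groups and a fold of 1.37 ± 0.35 in log2 units (SE; adjusted p = 0.0799 by edgeR). Sesn1 had a log2 fold of -0.31, and the difference between both was not tested. Bak1, which forms mitochondrial pores as Bax does, was steady at 55.2, 56.9 and 58.3 CPM in EU against 17.5, 51.0 and 2.58 CPM in PBS (edgeR adjusted p = 0.487). Cdkn1b, the inhibitor p27 of the same family as Cdkn1a, measured 91.5 ± 5.02 and 131 ± 52.7 CPM (SD, n = 3 each; edgeR adjusted p = 0.514). Zmat1 measured 10.1 ± 0.878 and 3.54 ± 6.14 CPM (edgeR adjusted p = 0.623). Over the 9 tested of 14 relatives 5 folds were positive (56.5% of all tested genes), with a median log2 fold of 0.11. Groups were separated for 2 higher, Sesn2 and Bak1 (21.8% of all tested genes), and 0 lower (6.40%). An unadjusted edgeR p below 0.05 was reached by 1, higher in EU (13.0%). Of the 9, 1 did not reach the filter's floor in all PBS libraries. Trp63 and Trp73, the other members of the p53 family, were too low to test.

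Of 10 Bcl-2 family partners of Bax 8 were tested. Groups were separated for 0 higher (21.8% of all tested genes) and 1 lower (6.40%). Folds were positive for 4 (56.5%) and negative for 4, with a median log2 fold of -0.08. Of the 8, 3 did not reach the filter's floor in all PBS libraries. Bad, a BH3-only protein, measured 10.4, 11.2 and 13.2 CPM in EU and 14.3, 31.9 and 24.5 CPM in PBS, with every EU library below every PBS library (log2 fold -1.02 ± 0.68 SE; edgeR adjusted p = 0.542). Bid, which activates Bax, measured 5.92 ± 1.26 CPM in EU, and its PBS value came from replicate 2 alone at 57.4 CPM, with 0 in the other PBS libraries. Bcl2l2 and Bcl2l1, which restrain Bax, measured 21.2 ± 2.75 and 44.3 ± 6.59 CPM in EU and 32.8 ± 21.9 and 57.2 ± 27.7 CPM in PBS (SD, n = 3 each; edgeR adjusted p = 0.726 and 0.790).

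**Figure D5:**
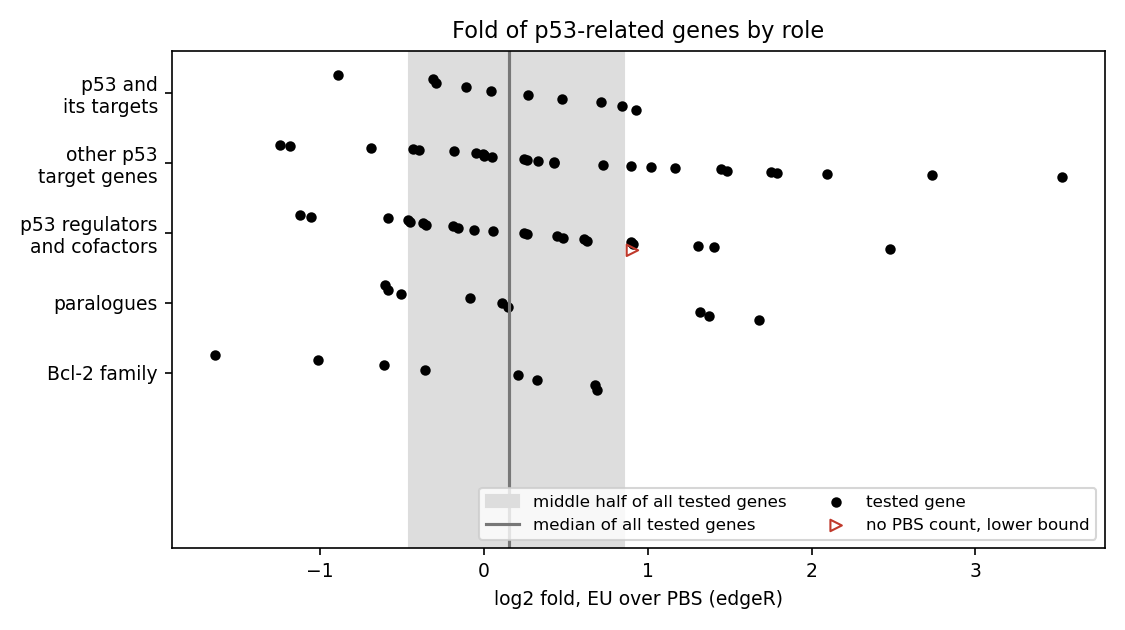
Log2 fold between EU and PBS of each tested gene by list, over the quartile band and median of all tested genes. An open red triangle marks Ppp1r13l, which had no PBS count, at a bound that covers counting error only. Fas, Siva1 and Pmaip1, with no PBS count and no bound, are not drawn. The 10 genes span -0.89 to 0.93, and the other p53 target genes reach 3.53, for Plk2, and -1.25.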

How the data were processed

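The authors deposited 1 table of whole-number read counts per Ensembl gene for 6 libraries, 3 EU and 3 PBS, not normalized. Per the submitters' processing notes the tools included STAR 2.7.10b, featureCounts 2.0.1, UMI-tools 1.1.2 and bcl2fastq 2.20.0, and the build was GRCm39. Whether strand was used in counting, and how reads matching several genes were treated, is not given in the sources used here. Symbols, lengths and transcripts came from GENCODE M21 and promoters from RefSeq, both on an earlier build, so gene coordinates of the count build are not printed. All 6 columns belong to a sample, and 52083 of 55416 gene IDs matched a symbol.

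Groups were compared with the edgeR 4.0.16 quasi-likelihood test (R 4.3.3), using TMM factors, filterByExpr (minimum count 10, minimum total 15) and group as the only term, two-sided, adjusted by Benjamini-Hochberg over all 12477 tested genes. Folds are EU over PBS, and CPM are scaled by library size times TMM factor. DESeq2 1.42.0 and limma-voom 3.58.1 were alternatives, with a replicate block, 2 scalings, 2 filters and each library left out. The genes and lists were chosen with earlier results of these data known. Beside the 10 genes, the 4 genes of each list with the smallest p and the 5 genes most like Trp53 were named. Trp63, Trp73, E230016M11Rik and single cell type markers were named after their values were seen. The p-values cover only the spread among these libraries, which may be technical, since the labels do not say that replicates were separate cultures.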

Additional observations from a re-analysis of the deposited data

How the results depend on the processing

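The call of 0 of the 10 genes was the same under all 13 alternatives. Over all tested genes, edgeR called 148 higher and 49 lower with the replicate number as a block, 0 and 7 with DESeq2 size factors, 3 and 40 with library size alone, and 121 and 336 with no low-count filter. DESeq2 called 506 and 438, and limma-voom 222 and 25. Leaving out a library gave 0 higher throughout and 0 to 12 lower, with 0 lower without PBS replicate 1, 2 or 3, 12 without EU replicate 1 and 1 without EU replicate 2. Of 130 log2 folds of the 10 genes under alternatives, 10 changed sign, none of them called. Zmat3 became -0.055 with DESeq2 size factors, -0.13 with library size alone and -0.059 with DESeq2, Mdm4 0.032 with no low-count filter, and Cdkn1a 0.30 with limma-voom. When 1 library was left out, Zmat3 ranged from -0.14 (without PBS replicate 2) to 0.32, Mdm4 from -0.26 to 0.13 (without PBS replicate 1), Cdkn1a from -0.76 to 0.22 (without PBS replicate 1), Sesn1 from -0.59 to 0.027 (without PBS replicate 2) and Btg2 from -0.26 (without PBS replicate 3) to 0.79. Gadd45a moved the most, from 0.22 to 8.93 without PBS replicate 1, where no PBS count was left (edgeR adjusted p = 0.0861). The median of the 10 genes became -0.037 with library size alone, where that of all tested genes was -0.020. The cause of these moves was not tested. Equal replicate numbers of EU and PBS correlated at 0.033 to 0.072 in their deviations from the group means. Such low values cannot decide whether they are pairs, since PBS libraries correlated with one another at only 0.569 to 0.599. Every library correlated best with its own number among those of the other group, a hint from the data and not from the design. With the replicate block the smallest adjusted p of the 10 was 0.375, for Ccng1. The rank by the longest coding transcript was added after seeing the data. PBS depth limits all 10 genes, Gadd45a with 5 counts and Bax with 41 most.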
